A study of Mus musculus with 31 samples.

Results

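The genes examined here encode the eukaryotic translation initiation factors, followed in the mouse uterus. They are every gene whose name on the array begins with Eif1, Eif2, Eif3, Eif4, Eif5 or Eif6, without the 4 Eif2ak genes, whose products are kinases that act on eIF2. This gave 54 of the 35018 genes of the array, carried by 86 probes, and each gene was followed through its probe with the highest mean signal. The probes that stand for 52 of the 54 were well above background on all 31 arrays, and these 52 were tested. The other 2, Eif2s3y and Eif4e1b, were too dim to test. The name prefix also takes in Eif2c1, Eif2c2, Eif2c3 and Eif2c4, which are older symbols of the Argonaute genes Ago1, Ago2, Ago3 and Ago4. Argonautes bind small RNAs and are not initiation factors, so that 48 of the 52 are taken here as initiation factors or their direct partners.

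Uterine RNA was measured on 31 arrays of 8 groups, with 4 arrays in each except AF2 KO E2, which has 3. All mice, controls included, lost their ovaries at 4 weeks of age and were then kept for 3 weeks on normal chow. They received castor oil under the skin, either alone (placebo, PLB) or with 8 µg/kg of 17β-estradiol (E2), and the uterus was taken 6 h later. The AF2 WT and AF2 KO mice were on the C57BL6/J background and the MISS WT and MISS KO mice on C57BL6/N. The mutants are known, from outside the labels, as mice whose estrogen receptor α (ERα) lacks activation function 2 (AF2 KO) or, for want of its palmitoylation site, does not reach the cell membrane (MISS KO), so "KO" does not stand for loss of the receptor. The labels name no cell type to which either allele is limited. The labels do not say whether an array holds 1 uterus or a pool, so the p-values measure the spread between these samples.

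Initiation is the step of protein synthesis at which the ribosome is brought to a messenger RNA and set on its start codon. eIF2 carries the initiator tRNA to the small ribosomal subunit, eIF2B recharges eIF2 with GTP, and eIF3 is the large scaffold on which the complex assembles. eIF4E binds the cap of the mRNA and joins the scaffold eIF4G and the helicase eIF4A in the complex eIF4F, while the 4E-binding proteins hold eIF4E back when the kinase mTORC1 is quiet. eIF1 and eIF1A proofread the start codon, and eIF5 and eIF5B release the factors and join the large subunit. In the uterus of an ovariectomised rodent, estradiol is long known to raise the synthesis of RNA and protein before cells divide.

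Levels are log2 intensities relative to the 75th percentile of their array, so a level of 3 lies 3 doublings above it, and differences are log2 fold changes ± the standard error (SE) of a limma model fitted to all 27059 tested genes. A gene was called when its Benjamini-Hochberg adjusted p over all of them was under 0.05, whatever its fold. The 75th percentile of intensity ran from 474.7 to 918.4 over the arrays, between 61.8% and 77.1% of probes on an array passed the background test, and no spot was saturated. Probes differ in brightness, and levels of different genes are not set against each other; the mean levels of the 52 probes ran from -3.53 (Eif5b) to 6.83 (Eif1). All 10 markers of stroma, all 8 of smooth muscle and all 10 of epithelium were bright enough to test. So were all 8 of endothelium, all 8 of lymphocytes and all 6 of adipocytes, so passing the background test does not identify the tissue. The stromal markers moved with E2: 9 of 10 fell in AF2 WT, 5 in MISS WT, 6 in MISS KO and 2 in AF2 KO. Their summed level was 9.07 to 9.36 in AF2 WT on placebo and 8.20 to 8.54 on E2, against 9.29 to 9.60 and 8.96 to 9.10 in AF2 KO. The epithelial sum was 7.08 to 7.41 on placebo and 7.27 to 7.76 on E2 in AF2 WT, with 6 of 10 markers higher. In MISS WT 4 epithelial markers were higher and 2 lower, and in MISS KO 6 and 0. Of 8 smooth muscle markers, 5 were higher and 2 lower in MISS WT, 4 and 2 in MISS KO, and 0 and 2 in AF2 WT. Of 7 macrophage markers, 1 was higher and 3 lower in AF2 WT, 0 and 4 in MISS WT, and 1 and 3 in MISS KO. Of 8 lymphocyte markers, 0 were higher, and 1, 4 and 2 were lower in the same order of genotypes. Of 6 markers of bladder, skeletal muscle and blood, 0 were higher and 1 lower in AF2 WT, 1 and 2 in MISS WT, and 4 and 2 in MISS KO. Of 8 endothelial markers, 3 were higher in each of these genotypes, and 1, 2 and 2 were lower in that order. Of 6 granulocyte markers, 1 was higher and 0 lower in AF2 WT, 2 and 2 in MISS WT, and 2 and 0 in MISS KO. Of 6 adipocyte markers, 0 were higher, and 0, 1 and 0 were lower in that order. The part of these shifts in the changes below was not tested, and in a bulk sample a change in the number of cells of a type and a change in RNA per cell cannot be told apart.

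E2 raised most initiation factors in every genotype but AF2 KO. In AF2 WT, 40 of the 52 rose and 6 fell, where 27.6% of all tested genes rose and 30% fell. In MISS WT, 40 rose and 6 fell (35.1% and 27.1% of all genes), and in MISS KO 39 rose and 7 fell (30.1% and 27.3%). The median change of the 52 was 0.95 in AF2 WT, 1.17 in MISS WT and 1.06 in MISS KO, beside -0.07, 0.16 and 0.03 over all genes. Among the 22339 genes that, like the members, were above background on all arrays, 31.8% rose and 29% fell in AF2 WT, 38.8% and 27.8% in MISS WT, and 34.1% and 27.7% in MISS KO. In AF2 KO no member was called by limma, where 3.68% of all genes were, and 7 of the 52 had an unadjusted p under 0.05. The share of all genes at an unadjusted p under 0.05 was not computed for this or any other comparison. Counts of members at that threshold therefore have no share to be read against. The median change of the 52 in AF2 KO was -0.06, beside 0.04 over all genes. The range of the 52 changes in AF2 KO was -0.36 to 0.31, and every 95% interval lay within a 2-fold change in either direction, from -0.60 to 0.52 at the widest. AF2 WT had 25 members at least 2-fold higher and 2 at least 2-fold lower. The shares of all genes given above are for changes of any fold, and the share at 2-fold was not computed.

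The genes were largely shared between the responding genotypes. A set of 38 members rose in AF2 WT, MISS WT and MISS KO alike, and 6 fell in all 3: Eif2c1, Eif2c4, Eif2d, Eif3f, Eif4b and Eif4e3. The share of all tested genes called alike in all 3 was not computed, so these counts have none beside them. Among the 38, Eif3m turned below 0 in all 3 under quantile normalization and in the authors' values. Eif2a, Eif3k and Eif4ebp2 were called in none of the 3, and Eif3e, Eif3h, Eif4a2, Eif4enif1 and Eif5a2 in some of them. No member was called in opposite directions. Across the 52 members the change in AF2 WT and the change in MISS WT, which share no array, had a Pearson r of 0.98, given as a description since genes are not independent replicates. Leaving the Argonautes out, 38 of 48 rose and 4 fell in AF2 WT. Arrays lay on 4 slides that each held 1 array per group, except that AF2 KO E2 had none on slide 2. Within slides 1 to 4 the median change of the 52 was 0.97, 0.99, 1.004 and 0.81 in AF2 WT, 1.17, 1.20, 1.20 and 1.15 in MISS WT, and 1.08, 1.17, 1.03 and 1.01 in MISS KO; in AF2 KO it was -0.04, -0.06 and 0.01 on slides 1, 3 and 4.

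**Figure D1:**
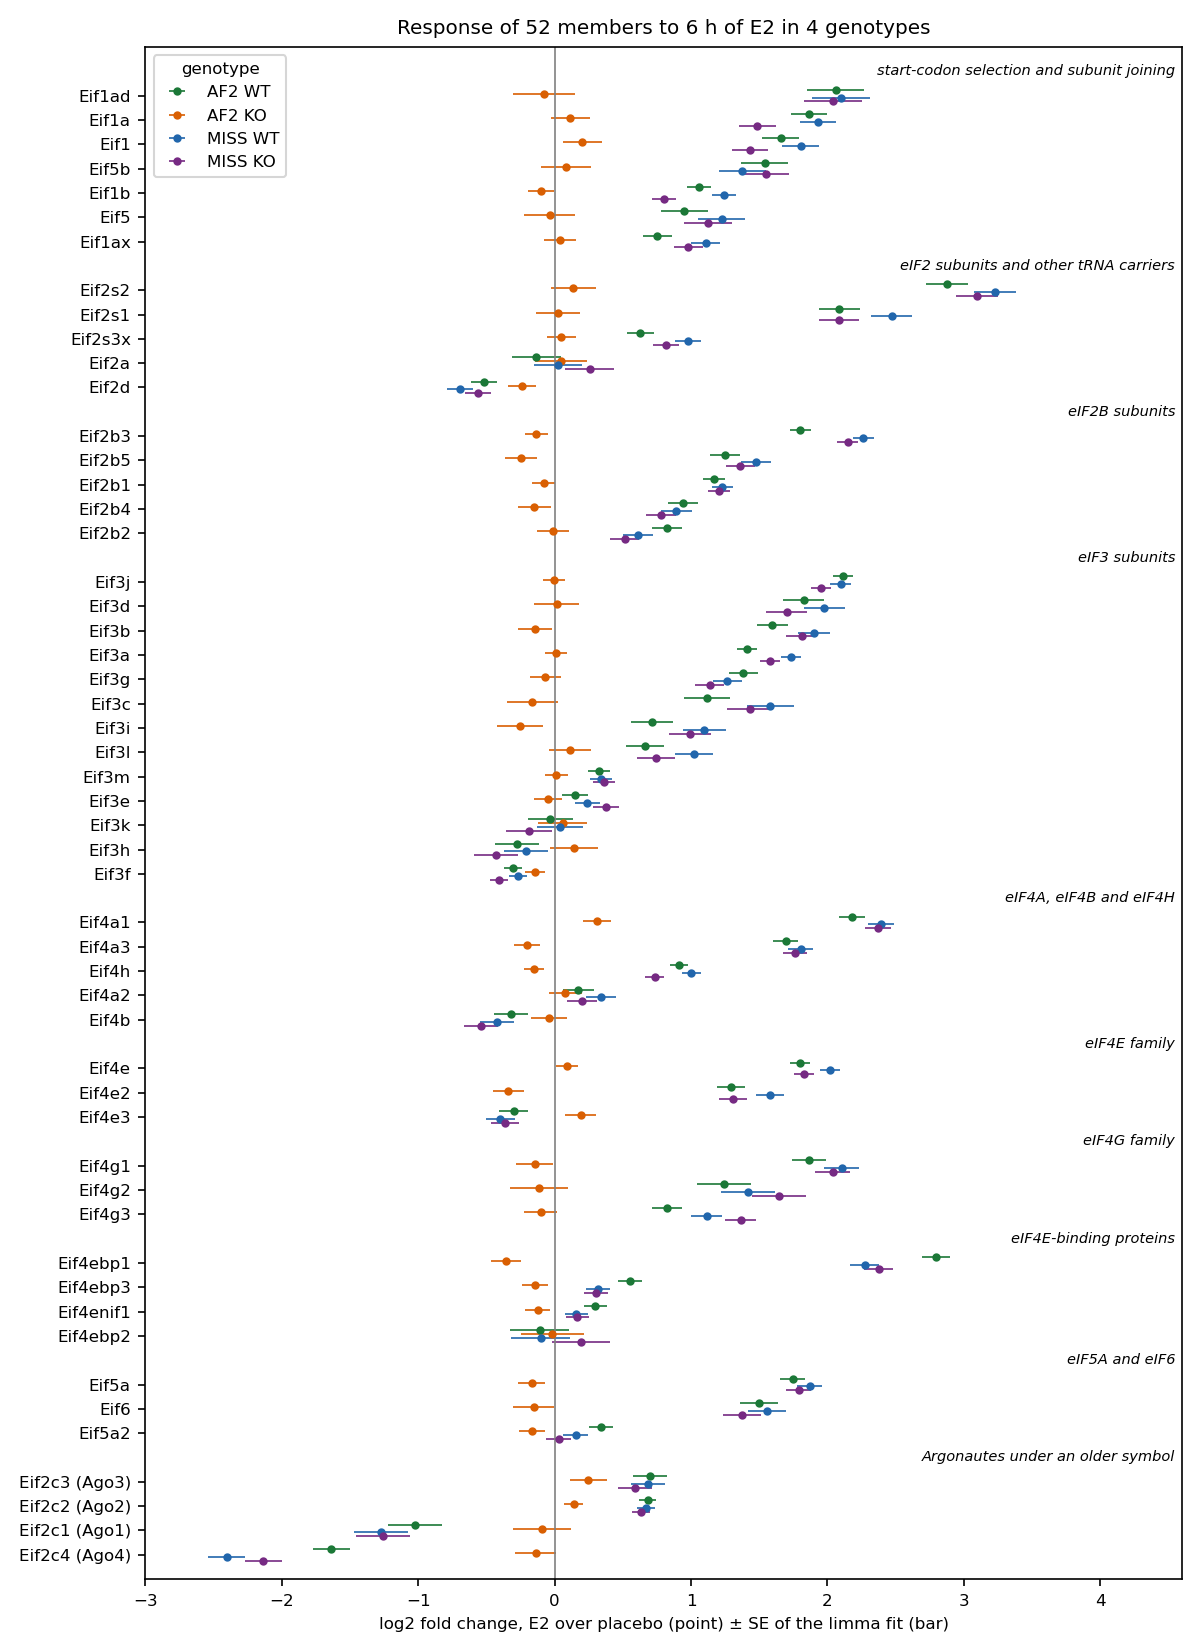
Log2 fold change of each of the 52 members with E2 over placebo (points) ± SE of the limma fit (bars) in 4 genotypes, grouped by role and sorted by the change in AF2 WT. AF2 KO points lie between -0.36 and 0.31, while the other genotypes follow each other from Eif2s2 (2.88 in AF2 WT) down to Eif2c4 (-1.64).

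The size of the response depended on how the arrays were put on one scale. Quantile normalization gave 38 members higher and 7 lower in AF2 WT with a median of 0.60, and the authors' own values gave 38 and 7 with a median of 0.65; scaling on the array median gave 42 and 3 with a median of 1.16. The same change of scale moved the median of all genes in AF2 WT from -0.07 to -0.02, -0.01 and 0.15, and in AF2 KO from 0.04 to -0.02, -0.01 and -0.13. Called changes whose direction turned under another scale are named as such below.

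Among the genes grouped under start-codon selection and subunit joining, 7 of 7 rose in AF2 WT, MISS WT and MISS KO, by 0.75 to 2.06 in AF2 WT. The upper end is that of Eif1ad, which was placed in this group by its name. Eif1ad, a relative of eIF1A, stood at 2.01, 1.82, 1.71 and 1.41 on the 4 AF2 WT placebo arrays and at 4.10, 3.77, 3.99 and 3.32 on the E2 arrays, a rise of 2.06 ± 0.21 (limma adjusted p = 3.91e-09). In AF2 KO it was at 1.64, 1.94, 1.62 and 1.31 on placebo and 1.87, 1.54 and 1.25 on E2, so the groups overlapped. The next largest change was that of Eif1a, which scans for the start codon with eIF1. Its level was 2.20, 2.34, 2.17 and 2.03 and then 4.21, 4.09, 4.23 and 3.68 in AF2 WT, and 2.30, 2.47, 2.14 and 1.93 and then 2.46, 2.36 and 2.16 in AF2 KO. The AF2 WT groups were apart by more than 1 unit, while the AF2 KO groups overlapped. Eif1, which keeps the scanning complex open, rose by 1.66 ± 0.13, although a dimmer probe of the same gene gave 1.03 with a limma adjusted p of 0.051. Eif1b and the X-linked Eif1ax rose by 1.06 ± 0.09 and 0.75 ± 0.11. Eif5b, the GTPase that joins the large subunit, rose by 1.54 ± 0.17, and Eif5, which makes eIF2 hydrolyse its GTP, by 0.95 ± 0.17.

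The 3 subunits of eIF2 all rose, unequally. Eif2s2, the β subunit, had the largest rise of the members in AF2 WT, MISS WT and MISS KO. Its probe lies at chr2:154698193-154698252 (mm9). On placebo the AF2 WT arrays read 3.30, 3.32, 3.33 and 2.89, and on E2 6.31, 5.96, 6.29 and 5.80. The AF2 KO arrays read 3.21, 3.10, 3.14 and 2.86 and 3.36, 3.29 and 2.99. Every AF2 WT array on E2 was over 2 units above every placebo array, and the AF2 KO arrays on E2 stayed within the range of placebo arrays of the series. In the MISS line the levels were 3.33, 3.41, 3.23 and 2.91 on placebo and 6.67, 6.54, 6.54 and 6.06 on E2 in WT, and 3.25, 3.26, 3.09 and 2.92 and 6.51, 6.31, 6.16 and 5.93 in KO. Membrane-deficient and wild-type uteri on E2 thus overlapped. The rise was 2.88 ± 0.15 in AF2 WT (limma adjusted p = 1.17e-14), 3.23 ± 0.15 in MISS WT and 3.10 ± 0.15 in MISS KO, beside 0.14 ± 0.16 in AF2 KO.

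Eif2s1, the α subunit whose phosphorylation stops initiation under stress, was at 2.02, 2.31, 2.21 and 1.82 on placebo and 4.21, 4.31, 4.28 and 3.91 on E2 in AF2 WT. In AF2 KO it was at 2.21, 2.18, 2.12 and 1.74 and 2.19, 2.11 and 1.95, overlapping ranges. It rose by 2.09 ± 0.15 in AF2 WT. Eif2s3x, the γ subunit on the X chromosome, rose by 0.63 ± 0.10, less than the other 2 subunits on the log2 scale; its dimmest probe gave 0.24 and was not called. The Y-linked copy Eif2s3y (chrY:364951-365010) was well above background on 7 of 31 arrays, all of them on placebo, at a mean level of -6.80. Of the factors that deliver tRNA in place of eIF2, Eif2d fell by 0.52 in AF2 WT (limma adjusted p = 3.2e-05) and in both MISS genotypes, and Eif2a changed by -0.13 ± 0.18, which was not called.

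All 5 subunits of eIF2B, the exchange factor of eIF2, rose in AF2 WT, MISS WT and MISS KO. Eif2b3, the γ subunit, read 0.11, 0.05, 0.05 and 0.10 on placebo and 1.86, 1.87, 1.91 and 1.87 on E2 in AF2 WT. AF2 KO read 0.24, 0.20, 0.13 and 0.05 and 0.00, 0.05 and 0.02; MISS WT read -0.05, 0.02, 0.15 and -0.06 and 2.38, 2.29, 2.27 and 2.17; MISS KO read 0.31, 0.13, -0.14 and -0.06 and 2.27, 2.24, 2.16 and 2.15. The E2 arrays of the 3 responding genotypes lay more than 1.5 units above their placebo arrays, with little spread. Eif2b5, the catalytic ε subunit, was at 1.32, 1.24, 1.21 and 0.99 and then 2.55, 2.63, 2.43 and 2.15 in AF2 WT, with no overlap, and changed by 1.25 ± 0.11 there and by -0.24 ± 0.12 in AF2 KO. Eif2b1, Eif2b4 and Eif2b2 rose by 1.17 ± 0.08, 0.94 ± 0.11 and 0.82 ± 0.11. In MISS WT the rise of Eif2b2 was not called under quantile normalization (0.03) or in the authors' values (0.05). In MISS KO its rise of 0.51 ± 0.11 was not called under quantile normalization (0.04). The authors' values put it at -0.0023 there.

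The 13 subunits of eIF3 did not move together. In AF2 WT 9 rose, 1 fell and 3 were not called, with changes from -0.31 to 2.11. Eif3j, the loosely bound subunit at the decoding site, was at 1.27, 1.45, 1.39 and 1.38 on placebo and 3.49, 3.54, 3.39 and 3.53 on E2. In AF2 KO its placebo arrays read 1.51, 1.40, 1.40 and 1.29 and its E2 arrays 1.49, 1.37 and 1.33, the same range. The rise in AF2 WT was 2.11 ± 0.08 (limma adjusted p = 5.95e-18); another probe gave 2.02 and the dimmest one 0.90. Eif3d, which can bind caps itself, was at 5.51, 5.35, 5.33 and 5.05 and then 7.27, 7.25, 7.18 and 6.84 in AF2 WT, and at 5.32, 5.50, 5.13 and 4.92 and then 5.38, 5.21 and 5.10 in AF2 KO. The AF2 WT groups were separate and the AF2 KO groups overlapped. Eif3b, Eif3a, Eif3g and Eif3c, scaffold and RNA-binding subunits, rose by 1.59 ± 0.11, 1.41 ± 0.07, 1.38 ± 0.10 and 1.12 ± 0.17. Eif3i rose by 0.71 ± 0.16 and Eif3l by 0.67 ± 0.14.

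The remaining eIF3 subunits, e, f, h, k and m, had changes of 0.33 or less in size in AF2 WT on this scale. Eif3k stood at 6.42, 6.29, 6.27 and 5.88 on placebo and 6.37, 6.33, 6.28 and 5.76 on E2 in AF2 WT. In MISS WT it was at 6.45, 6.30, 5.97 and 5.92 and 6.42, 6.36, 6.08 and 5.94, and in MISS KO at 6.46, 6.41, 6.27 and 5.96 and 6.24, 6.27, 6.01 and 5.82. The groups overlapped in each genotype, and the change in AF2 WT was -0.03 ± 0.17, with a 95% interval of -0.37 to 0.31. In MISS KO Eif3k was called lower under quantile normalization (-0.47), in the authors' values (-0.43) and with slide as a block (-0.19). In MISS WT it was called lower under quantile normalization (-0.40) and in the authors' values (-0.39). Eif3e changed by 0.15 ± 0.09 and Eif3h by -0.28 ± 0.16, neither called in AF2 WT. Eif3h was called lower there with its other probe (-0.32), in the authors' values (-0.39) and with slide as a block (-0.28). That probe was called lower in MISS WT as well (-0.36). Eif3f fell by 0.31 (limma adjusted p = 0.000216); it was at -0.75 under quantile normalization and -0.74 in the authors' values, and at -0.09 and not called under median scaling. Eif3m rose by 0.33 ± 0.08 on this scale. In MISS WT Eif3e was called higher (0.24 ± 0.09) and turned to -0.22 under quantile normalization. Quantile normalization turned Eif3m to -0.12, put Eif3e at -0.20 and Eif3k at -0.26, neither called, and called Eif3h lower at -0.39; the authors' values gave -0.14 for Eif3m. The difference between the subunits that rose by more than 0.6 and these 5 is a grouping made after the values were seen. Under quantile normalization and in the authors' values 8 of the 13 rose, with a median of 0.35 in each, and under median scaling 10 rose, among them Eif3e and Eif3m.

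**Figure D2:**
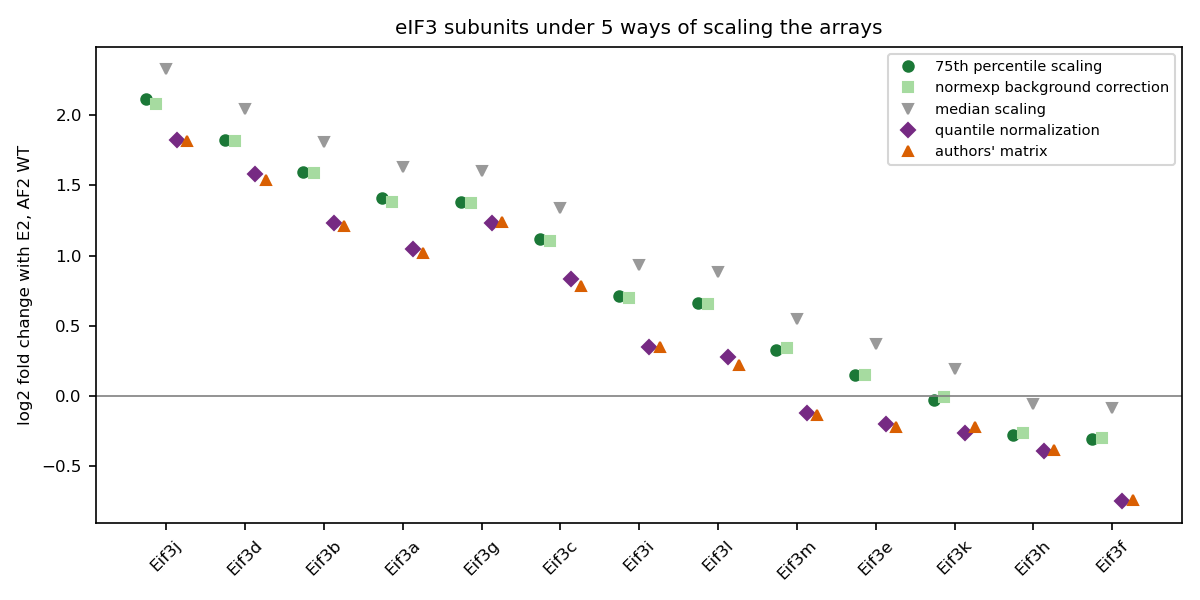
Log2 fold change of the 13 eIF3 subunits with E2 in AF2 WT under 5 ways of putting the arrays on one scale, sorted by the change under 75th percentile scaling. Eif3m, at 0.33 under 75th percentile scaling, lies at -0.12 under quantile normalization, where Eif3j is at 1.83.

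The eIF4F complex rose in its cap-binding, scaffold and helicase parts. Eif4e, the cap-binding protein, read 1.29, 1.31, 1.44 and 1.36 on placebo and 3.06, 3.07, 3.22 and 3.25 on E2 in AF2 WT. In AF2 KO it read 1.29, 1.12, 1.40 and 1.28 and 1.29, 1.45 and 1.35. MISS WT gave 1.12, 1.25, 1.34 and 1.13 and 3.20, 3.10, 3.33 and 3.29, and MISS KO 1.28, 1.32, 1.33 and 1.24 and 3.20, 3.01, 3.15 and 3.11. Except in AF2 KO, whose groups overlapped, placebo and E2 arrays were more than 1.5 units apart. The change was 1.80 ± 0.07 in AF2 WT (limma adjusted p = 9.41e-17) and 0.09 ± 0.08 in AF2 KO. Eif4e2, a cap-binding relative that represses translation, was at 2.02, 1.90, 1.74 and 1.73 and then 3.16, 3.25, 3.18 and 2.98 in AF2 WT, a rise of 1.29 ± 0.10; 2 dimmer probes of the gene gave 0.68 and 0.65. In AF2 KO it was at 2.11, 2.20, 2.002 and 2.03 and then 1.78, 1.85 and 1.61, which did not overlap, but the change of -0.34 ± 0.11 was not called; it was called lower under median scaling (-0.51), with normexp (-0.33) and with slide as a block (-0.30). Eif4e3 fell by 0.30 in AF2 WT, a call lost without array 2 of AF2 WT E2 (-0.27) or array 3 of AF2 WT PLB (-0.27), under quantile normalization (-0.21) and under median scaling (-0.08). The oocyte form Eif4e1b was well above background on 9 of 31 arrays with one probe and on none with the other.

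Eif4g1, the main scaffold of eIF4F, was at 4.23, 3.89, 3.96 and 3.71 on placebo and 5.95, 5.99, 5.79 and 5.52 on E2 in AF2 WT, and at 4.03, 4.05, 3.94 and 3.85 and 4.00, 3.80 and 3.67 in AF2 KO. The AF2 WT groups were more than 1 unit apart. It rose by 1.87 ± 0.13. Eif4g2, which cannot bind eIF4E, was at 2.35, 2.60, 2.38 and 2.83 and then 3.49, 3.62, 3.61 and 4.40, a rise of 1.24 ± 0.20, with E2 array 4 above the other 3. Eif4g3 rose by 0.82 ± 0.11.

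The helicase pair divided. Eif4a1 read 5.70, 5.36, 5.77 and 5.42 on placebo and 7.74, 7.79, 7.87 and 7.57 on E2 in AF2 WT, and 5.25, 5.32, 5.32 and 5.18 and 5.59, 5.52 and 5.63 in AF2 KO. The MISS WT arrays read 5.33, 5.42, 5.29 and 5.31 and 7.82, 7.76, 7.78 and 7.56, and the MISS KO arrays 5.46, 5.35, 5.29 and 5.02 and 7.69, 7.69, 7.64 and 7.58. Placebo and E2 arrays were apart in all 4 genotypes, by a small step in AF2 KO. The change was 2.18 ± 0.09 in AF2 WT (limma adjusted p = 2.45e-16) and 0.31 ± 0.10 in AF2 KO, the highest of the 52 there, with a limma adjusted p of 0.0939. Called higher in the authors' values (0.29) and with slide as a block (0.32), Eif4a1 in AF2 KO was otherwise not called. Its paralog Eif4a2 read 5.28, 5.48, 5.37 and 5.02 and then 5.57, 5.48, 5.49 and 5.31 in AF2 WT, and 5.36, 5.34, 5.07 and 5.03 and then 5.58, 5.58, 5.52 and 5.48 in MISS WT. The groups overlapped in AF2 WT and were separate in MISS WT, where the change of 0.34 ± 0.11 was called. Quantile normalization and the authors' values turned Eif4a2 to -0.27 and -0.30 in AF2 WT and to -0.25 and -0.30 in MISS WT. Eif4a3, the helicase of the exon junction complex, was at 1.15, 1.15, 1.20 and 1.25 and then 2.81, 2.85, 2.84 and 3.04 in AF2 WT, with no overlap, and rose by 1.69 ± 0.09. Of the cofactors of the helicase, Eif4h rose by 0.91 ± 0.07 and Eif4b fell by 0.32; the fall of Eif4b was larger under quantile normalization (-0.65) and in the authors' values (-0.60), and was not called with another of its probes (-0.20), under median scaling (-0.10) or without any 1 of 5 arrays (-0.26 to -0.31, limma adjusted p 0.057 to 0.099), which were AF2 WT PLB 1, 2 and 3 and AF2 WT E2 3 and 4.

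**Figure D3:**
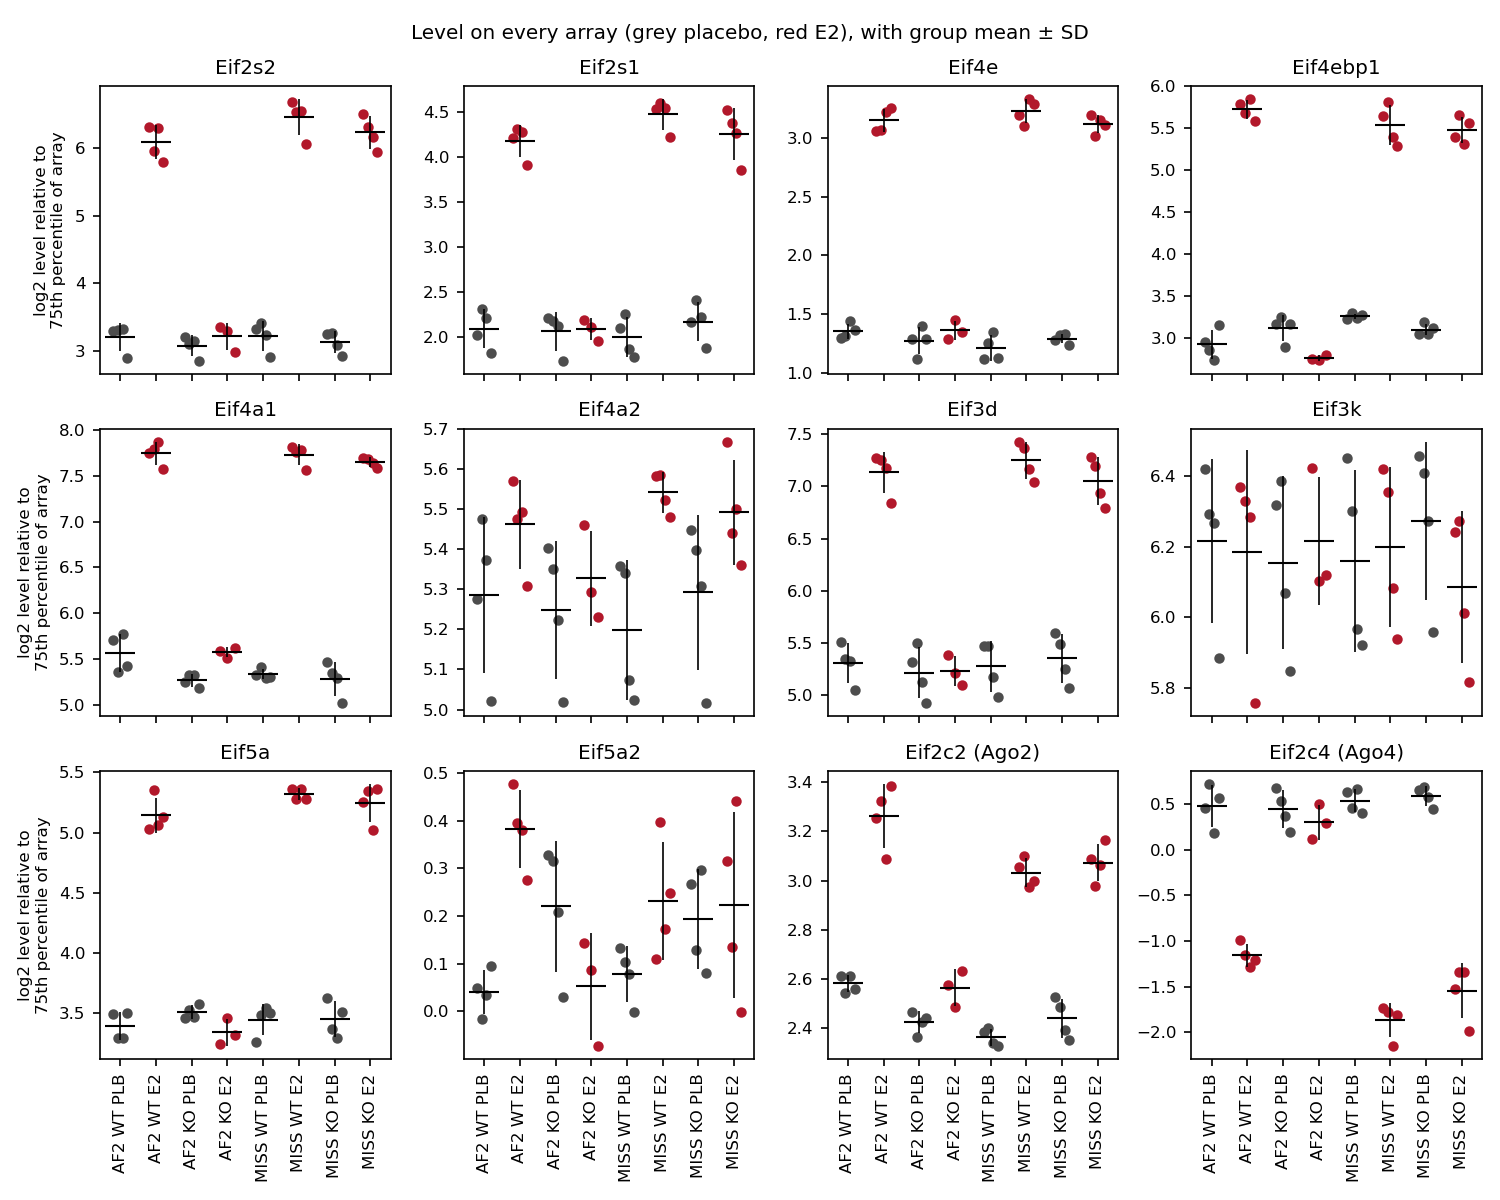
Level of 12 members on every array, as log2 intensity relative to the 75th percentile of the array, in 8 groups (grey placebo, red E2; lines mark the group mean ± SD; each panel has its own vertical scale). For Eif2s2, Eif2s1, Eif4e, Eif4ebp1, Eif4a1, Eif3d and Eif5a the E2 arrays of AF2 WT, MISS WT and MISS KO form a separate upper group, while Eif4a2 and Eif3k span less than 1 unit over all arrays and Eif2c4 drops.

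Promoter sequences show where the members share a motif. A window of 250 bases before an annotated start, from RefSeq on GRCm38.p6, was at hand for 41 of the 52. The E-box CACGTG, a palindrome that reads the same on both strands and is bound by Myc and related factors, was found in 9 of the 41 (22.0%), against 1854 of 27025 genes (6.86%). A gene with several starts counted once if any of its windows held the motif, so genes with more starts had more chances to match. The 27025 are all genes with a window, whether or not they were above background here, while the members were. The share among genes above background was not computed, so the difference between the 2 shares cannot be assigned to the members being initiation factors. The 9 are Eif1b, Eif3f, Eif3k, Eif4a1, Eif4e, Eif4g1, Eif4h, Eif5a and Eif5a2; 7 of them rose in AF2 WT and 1 fell, with a median change of 1.06, beside 25 of 32 that rose and 4 that fell, with a median of 0.95, among the members without it. The full estrogen response element (GGTCA and TGACC with 3 bases between them), searched on both strands, was in none of the 41 and in 18 of all genes (0.0666%). At so low a share, its absence from 41 windows says nothing about the members. Imperfect copies and sites outside the window were not searched. The ATF4 element TGATGNAA, also on both strands, was in 1 member, Eif2s3x (2.44%), against 3.91% of all genes. A match is a run of letters in the window and no evidence of binding.

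The windows of the 3 genes of eIF4F, all with an E-box, are shown beside those of Eif5a2 and Eif3k, which hold it too and changed by 0.34 ± 0.09 and -0.03 ± 0.17 in AF2 WT. Capitals mark CACGTG, and each window is written 5′ to 3′ on the strand of its gene, ending at the base before the start.
Eif4e, chr3:138527018-138527267, plus strand: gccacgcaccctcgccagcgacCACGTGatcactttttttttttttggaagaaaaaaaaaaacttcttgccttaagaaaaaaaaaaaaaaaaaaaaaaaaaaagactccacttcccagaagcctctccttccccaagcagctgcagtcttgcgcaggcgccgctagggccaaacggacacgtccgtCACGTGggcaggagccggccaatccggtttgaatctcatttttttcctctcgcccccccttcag
Eif4a1, chr11:69672424-69672673, minus strand: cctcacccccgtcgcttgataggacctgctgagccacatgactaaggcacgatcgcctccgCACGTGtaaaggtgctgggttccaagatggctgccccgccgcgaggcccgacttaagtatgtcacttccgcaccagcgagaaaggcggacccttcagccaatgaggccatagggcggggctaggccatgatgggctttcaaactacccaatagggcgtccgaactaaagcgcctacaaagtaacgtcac
Eif4g1, chr16:20672477-20672726, plus strand: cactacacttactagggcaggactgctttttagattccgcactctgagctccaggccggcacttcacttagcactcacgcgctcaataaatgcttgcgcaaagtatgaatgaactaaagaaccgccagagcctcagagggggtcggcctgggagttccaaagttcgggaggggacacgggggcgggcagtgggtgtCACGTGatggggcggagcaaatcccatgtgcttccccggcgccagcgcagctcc
Eif5a2, chr3:28781027-28781276, plus strand: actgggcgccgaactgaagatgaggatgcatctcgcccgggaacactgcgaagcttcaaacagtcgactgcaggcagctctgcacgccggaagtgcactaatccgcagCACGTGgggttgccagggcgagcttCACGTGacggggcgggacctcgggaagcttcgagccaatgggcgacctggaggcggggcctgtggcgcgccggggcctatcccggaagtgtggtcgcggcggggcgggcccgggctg
Eif3k, chr7:28981889-28982138, minus strand: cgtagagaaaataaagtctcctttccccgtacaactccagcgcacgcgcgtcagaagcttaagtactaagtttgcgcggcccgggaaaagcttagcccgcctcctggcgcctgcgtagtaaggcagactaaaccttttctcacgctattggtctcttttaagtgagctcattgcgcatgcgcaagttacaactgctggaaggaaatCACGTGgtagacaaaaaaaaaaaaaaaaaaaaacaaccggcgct
Eif4e and Eif5a2 each hold 2 copies. The motif stood in genes with large changes and in genes with small ones.

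Eif4ebp1 had the second largest rise of the members in AF2 WT. Its protein binds eIF4E and blocks its contact with eIF4G until mTORC1 phosphorylates it. The level was 2.96, 2.86, 2.75 and 3.16 on placebo and 5.79, 5.68, 5.85 and 5.59 on E2 in AF2 WT, and 3.17, 3.25, 2.90 and 3.17 and 2.75, 2.75 and 2.81 in AF2 KO. In AF2 KO the E2 arrays lay below all placebo arrays. In the MISS line it was at 3.23, 3.30, 3.25 and 3.27 and 5.64, 5.81, 5.40 and 5.29 in WT, and at 3.05, 3.19, 3.05 and 3.12 and 5.39, 5.65, 5.32 and 5.57 in KO. The change was 2.80 ± 0.10 in AF2 WT (limma adjusted p = 1.21e-17), 2.27 ± 0.10 in MISS WT, 2.38 ± 0.10 in MISS KO and -0.36 ± 0.11 in AF2 KO. The last had the smallest limma adjusted p of the 52 in AF2 KO, 0.0775; it was called lower under median scaling (-0.53), normexp background correction (-0.41), with slide as a block (-0.33) and without AF2 KO PLB array 3 (-0.43).

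The other binding proteins moved little. Eif4ebp3 was at 2.57, 2.49, 2.49 and 2.66 and then 3.13, 3.17, 3.02 and 3.09 in AF2 WT, a rise of 0.55 ± 0.09; in MISS WT and MISS KO its rises of 0.32 ± 0.09 and 0.31 ± 0.09 turned to -0.08 and -0.01 under quantile normalization. Eif4ebp2 changed by -0.11 ± 0.21 and was not called. Eif4enif1, which shuttles eIF4E into the nucleus, rose by 0.30 ± 0.09 in AF2 WT, and by 0.09 under quantile normalization, where it was not called.

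Eif5a, whose protein carries hypusine and helps ribosomes over difficult stretches, read 3.49, 3.30, 3.29 and 3.51 on placebo and 5.03, 5.35, 5.06 and 5.13 on E2 in AF2 WT. In AF2 KO it read 3.47, 3.53, 3.47 and 3.58 and 3.25, 3.47 and 3.32. It rose by 1.75 ± 0.09 in AF2 WT and changed by -0.17 ± 0.10 in AF2 KO. Its paralog Eif5a2 read 0.05, -0.02, 0.03 and 0.10 and then 0.48, 0.40, 0.38 and 0.28 in AF2 WT, separate but close, a rise of 0.34 ± 0.09; in MISS WT and MISS KO it was not called (0.15 ± 0.09 and 0.03 ± 0.09). Eif6, which keeps the large ribosomal subunit from joining early, was at 3.64, 3.48, 3.38 and 3.29 and then 5.08, 5.17, 4.90 and 4.63 in AF2 WT, and rose by 1.496 ± 0.14. Both enzymes that make hypusine rose as well, Dohh by 1.23 and Dhps by 0.53 in AF2 WT.

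The Argonautes went both ways. Eif2c4 (Ago4, chr4:126169537-126169596, mm9) read 0.46, 0.72, 0.18 and 0.56 on placebo and -0.99, -1.15, -1.28 and -1.21 on E2 in AF2 WT, and 0.67, 0.53, 0.37 and 0.19 and 0.12, 0.50 and 0.29 in AF2 KO. In MISS WT it read 0.63, 0.46, 0.66 and 0.40 and -1.74, -1.78, -2.15 and -1.81, and in MISS KO 0.65, 0.69, 0.58 and 0.44 and -1.52, -1.34, -1.34 and -1.98. Every E2 array outside AF2 KO was below every placebo array. It fell by 1.64 in AF2 WT (limma adjusted p = 8.89e-11), by 2.40 in MISS WT and by 2.14 in MISS KO. Eif2c1 (Ago1) was at -0.35, -0.28, -0.05 and 0.06 and then -1.47, -1.44, -1.12 and -0.67 in AF2 WT, and fell by 1.02 there. Eif2c3 (Ago3, chr4:126032332-126032391) rose by 0.70 ± 0.13, though it lies beside Ago1 (chr4:126112644-126112703) and Ago4 on chromosome 4. Eif2c2 (Ago2), the Argonaute that can cut its target, was at 2.61, 2.54, 2.61 and 2.56 and then 3.25, 3.33, 3.09 and 3.39 in AF2 WT. It rose by 0.68 ± 0.07, but a second probe of the same transcript gave -0.28 and was not called, so the probes disagree on its direction.

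The comparison of the responses in mutant and wild type asked whether each receptor defect changed the effect of E2. In the AF2 line the response of KO minus that of WT was lower for 40 members and higher for 3 (22.9% and 29% of all genes), with a median of -1.08 beside 0.18 over all genes. The split moved with the scale, to 36 lower and 7 higher under quantile normalization and in the authors' values, and to 42 and 1 under median scaling; with slide as a block it was 40 and 7. Of the genes above background on all arrays, 27% were lower and 26.9% higher in that difference. The difference was called for 43 of the 46 members that changed in AF2 WT; the exceptions were Eif2d, Eif3f and Eif4b, with changes of 0.52 or less in size. Those 3 were called as well with slide as a block (0.31, 0.17 and 0.32), under quantile normalization (0.31, 0.61 and 0.63) and in the authors' values (0.32, 0.60 and 0.56). All 46 had a smaller change in AF2 KO than in AF2 WT, but they were picked by their change in AF2 WT, which the difference subtracts. A smaller change in KO is thus partly built in by the choice. The share among all genes picked in that way was not computed. Eif4ebp1 had the largest difference, -3.15 ± 0.15 (limma adjusted p = 1.42e-14). Then came Eif2s2 (-2.74 ± 0.22), Eif1ad (-2.14 ± 0.31), Eif3j (-2.12 ± 0.11), Eif2s1 (-2.06 ± 0.22), Eif4g1 (-2.01 ± 0.19) and Eif2b3 (-1.94 ± 0.11). Eif5a, Eif4a3, Eif4a1, Eif3d and Eif1a followed, with differences between -1.91 and -1.75. The 3 with a higher value in KO were genes that fell in WT: Eif2c4 (1.497 ± 0.20), Eif2c1 (0.93 ± 0.29) and Eif4e3 (0.49 ± 0.16). Under median scaling Eif2c1 (0.53) and Eif4e3 (0.097) were not called, and in the authors' values Eif4e3 (0.31) was not. Within slides 1, 3 and 4 the median difference was -1.05, -1.14 and -0.81. Small differences among the 43 rested on single arrays or on the scale: that of Eif2c3 was not called with normexp (-0.19) or without any 1 of 7 arrays (-0.25 to -0.44), that of Eif3l under quantile normalization (-0.20), in the authors' values (-0.12) or without any 1 of 6 arrays (-0.47 to -0.51), and that of Eif3m without any 1 of 4 (-0.26 to -0.29), turning to 0.15 under quantile normalization. For Eif2c3 these arrays were AF2 WT E2 1 and 2, AF2 WT PLB 2 and 4, AF2 KO PLB 3 and 4 and AF2 KO E2 2; for Eif3l, AF2 KO PLB 1 and 2, AF2 KO E2 2 and 3, AF2 WT E2 1 and AF2 WT PLB 4; for Eif3m, AF2 WT PLB 1, AF2 KO E2 1, AF2 KO PLB 3 and AF2 WT E2 3. With another probe of the gene, the difference was not called for Eif1 (-0.815), Eif4e (-1.03), Eif4e2 (-0.32), Eif2s3x (-0.10) or Eif3m (-0.31). That of Eif4enif1 was not called under quantile normalization (-0.20) or in the authors' values (-0.20). That of Eif2c2 was not called there either (-0.19 and -0.14), and its second probe gave 0.37, not called.

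**Figure D4:**
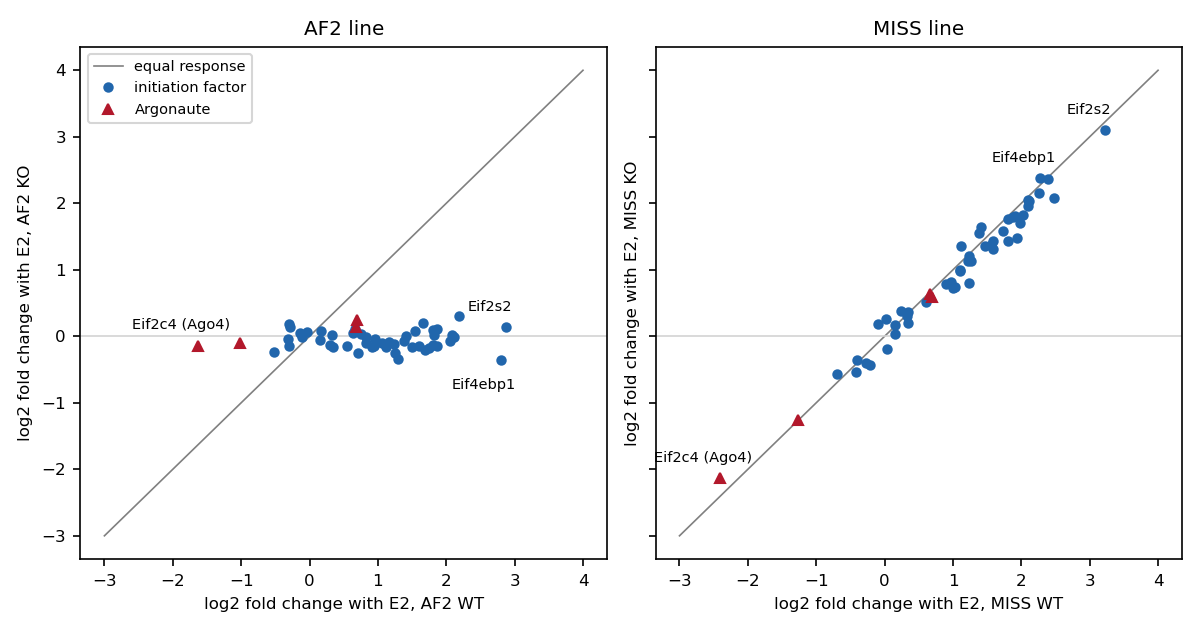
Log2 fold change of the 52 members with E2 in the mutant (vertical) against the wild type (horizontal) of each line; circles are initiation factors, triangles Argonautes, and the diagonal marks equal responses. In the AF2 line the points lie along 0, between -0.36 and 0.31, and in the MISS line along the diagonal.

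In the MISS line no member differed in response between KO and WT (0.898% of all genes did); 3 of the 52 had an unadjusted p under 0.05 in limma, and the smallest adjusted p was 0.104, for Eif1b. The median difference was -0.11, beside -0.07 over all genes, and the values ran from -0.45 (Eif1a) to 0.30 (Eif4ebp2). The 95% intervals of all 52 lay within a 2-fold difference, from -0.84 to 0.92 at the widest, so smaller differences were not detectable for some. With slide as a block 4 members were called, all with a smaller value in KO.

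Under placebo the members differed little between genotypes. AF2 KO and AF2 WT differed in 3 members (9.04% of all genes; 3.37% higher and 5.67% lower in KO): Eif4enif1 was higher in KO by 0.38 ± 0.09 (limma adjusted p = 0.00461), Eif4h by 0.21 ± 0.07, and Eif4a1 lower by 0.30. Eif4enif1 stood at 1.72, 1.87, 1.69 and 1.63 in WT and at 2.16, 2.16, 2.10 and 2.03 in KO, with no overlap. It was the only one of the 3 still called without each array in turn: the call of Eif4h was lost without any AF2 placebo array but WT array 4 (0.18 to 0.23), and that of Eif4a1 without any but WT arrays 2 and 4 (-0.23 to -0.31). Under median scaling 13 members were called higher in KO and none lower. Of the epithelial markers, 5 of 10 were higher and 1 lower in AF2 KO on placebo; their part in these values was not tested. MISS KO and MISS WT differed in no member (0.85% of all genes), with 2 at an unadjusted p under 0.05 in limma.

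The wild types of both lines, which also differ in substrain, were compared as a gauge. On placebo 2 members differed (11.7% of all genes; 3.04% higher and 8.61% lower in MISS WT): Eif4ebp1 was higher in MISS WT by 0.33 ± 0.10 and Eif2c2 lower by 0.22. Markers of lymphocytes (4 of 8) and macrophages (3 of 7) were higher in MISS WT too; their part in these values was not tested. The call of Eif4ebp1 was lost without any placebo array but AF2 WT 4 (0.27 to 0.34), and that of Eif2c2 without AF2 WT array 1 or 3 or MISS WT array 3 or 4 (-0.21). The response to E2 differed in 3 members (9.5% of all genes; 6.39% higher and 3.11% lower in MISS WT), and in 14 with slide as a block. The response of Eif2b3 was larger in MISS WT by 0.46 ± 0.11 (limma adjusted p = 0.00753), that of Eif2c4 lower by 0.77, and that of Eif4ebp1 lower by 0.52. The last was not called without MISS WT E2 array 3 or 4, AF2 WT PLB array 3 or AF2 WT E2 array 3 (-0.44 to -0.48).

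The regulators of the pathway, taken from lists outside the rule, are given here by their counts, to be read against the 27.6% of all tested genes that rose and the 30% that fell in AF2 WT. Of 8 genes that set or reverse the phosphorylation of eIF2α, 5 rose and 1 fell in AF2 WT. Both regulatory subunits of its phosphatase rose, Ppp1r15b by 2.15 ± 0.15 and Ppp1r15a by 1.72 ± 0.18, as did the heme-regulated kinase Eif2ak1, by 1.29 ± 0.07. The endoplasmic reticulum kinase Eif2ak3 fell by 0.96 in AF2 WT and by 0.85 in MISS KO, and changed by -0.14 in MISS WT. Of 21 genes of mTORC1, the kinase complex upstream of the 4E-binding proteins, 10 rose and 8 fell in AF2 WT. Sesn2, which holds mTORC1 back when amino acids are short, rose by 3.71 ± 0.13, while its paralog Sesn1 fell by 3.42 and the mTOR inhibitor Deptor by 2.68. Rhebl1, a relative of the activator Rheb, fell by 3.70, and Mlst8, a core subunit, rose by 1.62 ± 0.13.

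Among 16 regulators of eIF4E and eIF4A, 5 rose and 4 fell in AF2 WT, close to the shares of all genes. The poly(A)-binding protein Pabpc4 rose by 1.89 ± 0.09, the helicase Dhx29, which helps ribosomes through structured leaders, by 1.85 ± 0.13, and Larp1, which holds mRNAs of the translation machinery, by 1.83 ± 0.08. Paip2, an inhibitor of poly(A)-binding protein, fell by 1.30. Of 9 other initiation and recycling factors, 7 rose and 1 fell; the recycling factor Abce1 rose by 2.25 ± 0.12, Bzw1 by 1.56 ± 0.11 and Denr by 1.09 ± 0.07. Of 11 elongation and termination factors, 4 rose and 1 fell, where 27.6% and 30% of all genes did, and Eef1a2 was too dim to test. The release factors Etf1 and Gspt1 rose by 2.63 ± 0.17 and 1.91 ± 0.09, and Eef2k, the kinase that brakes elongation, fell by 1.17. In AF2 KO the called genes of these lists were Pdcd4, an inhibitor of eIF4A, at 0.70 ± 0.17, and Rragc, a GTPase that recruits mTORC1, at -0.23 ± 0.06.

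The genes whose 8 group means were most like those of Eif2s2 were, by Pearson r, Gm9892, Taf7, Rasl2-9, Wdr12 and Ebna1bp2, with r of at least 0.999. Their changes in AF2 WT were 2.91, 0.82, 2.37, 1.90 and 1.67, so a gene can share the pattern at a smaller size. The r is a description over 8 means.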

How the data were processed

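RNA from the uterus was hybridised to 31 one-colour Agilent arrays. Intensities were deposited by the authors as the processed signal of Agilent Feature Extraction 10.10.1.1, background-subtracted per the file headers. The authors also deposited a matrix of log2 values (used as an alternative only; column medians 7.558 to 7.564), made with limma per the submitters' processing notes; how it was normalized is not given in the sources used here. Here, log2 intensity minus the 75th percentile of each array was taken, spots marked as outliers were left out, and spots of a probe were averaged. A probe was tested if, in at least 1 group, all arrays had it well above background, and the brightest tested probe stood for a gene. limma 3.58.1 in R 4.3.3 fitted 8 group means with 10 contrasts, and p-values were adjusted over 27059 genes (Benjamini-Hochberg). On simulated data for E2 against placebo in AF2 WT, with 27059 genes, 76% of changes of 1 log2 unit and 95% of 2 were recovered. There, 100 genes were changed at each size, noise was independent between genes, and 14 unchanged genes were called. In the data 57.6% of genes were called in AF2 WT, so these percentages are a check of the fit and not the recovery in the data. Precision is limited by how many arrays a group has. The members and gene lists were chosen with earlier results of these data known. Within each role, the members with the largest change in AF2 WT were described in full, with every member called in a placebo comparison and up to 12 by size in a difference of responses. Python 3.11.15 and pandas 2.3.3 were used for tables. Alternatives were quantile and median scaling, normexp background correction (offset 50), the authors' matrix, no or a strict filter on dim probes, other probes, slide as a block, only the groups compared, and leaving out each array.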

Additional observations from a re-analysis of the deposited data

Results flagged for a closer look

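Among groups of 4 arrays of the 23 members described by array, 8 of 161 had 1 array far from the other 3; chance gives about 1 in 20 groups. Eif2s2 was lowest on AF2 WT PLB array 4 at a level of 2.89, with the nearest array at 3.30. Eif2s1 was lowest on MISS WT E2 array 4 at 4.22, with the nearest at 4.53. Eif2c4 was lowest on MISS WT E2 array 3 at -2.15, with the nearest at -1.81. Eif3j was highest on MISS KO E2 array 1 at 3.54, against 3.37 for the next. Eif4a3 was highest on AF2 KO PLB array 4 at 1.39, against 1.29, and on MISS KO E2 array 4 at 3.06, against 2.83. Eif4g2 was highest on AF2 WT E2 array 4 at 4.40, against 3.62, the widest gap of the 8. Eif4h was highest on MISS WT PLB array 2 at 5.53, against 5.35.

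Responses to E2 that differed between groups in the limma test of the difference itself were those of 43 members between AF2 KO and AF2 WT, and of 3 members between MISS WT and AF2 WT.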

How the results depend on the processing

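The numbers of members called with E2 in AF2 WT, MISS WT and MISS KO, and in the difference between AF2 KO and AF2 WT, stayed within 1.5 times under every alternative run; leaving out each array gave 44 to 46, 45 to 46, 45 to 46 and 41 to 43. The split of the last, 3 higher and 40 lower, became 7 and 36 under quantile normalization and in the authors' values, 1 and 42 under median scaling, and 7 and 40 with slide as a block. The other counts were small and moved. In AF2 KO the count of 0 became 10 under median scaling (all lower), 2 with normexp, 1 in the authors' values, 5 with slide as a block, and 0 to 1 without single arrays. For MISS KO minus MISS WT, 0 became 1 with normexp and 4 with slide as a block. On placebo in the AF2 line, 3 became 1 under quantile normalization, 13 under median scaling, 1 with no filter on dim probes, 1 with only the groups compared, and 1 to 3 without single arrays. On placebo in the MISS line, 0 became 1 in the authors' values, 1 with slide as a block and 0 to 1 without single arrays (Eif4g3, -0.40 without MISS WT PLB array 4). Between the wild types on placebo, 2 became 4 under median scaling, 4 with normexp, 6 with slide as a block, 1 with only the groups compared and 0 to 3 without single arrays; their difference in response went from 3 to 14 with slide as a block and to 2 to 4 without single arrays.

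Of 9712 values of single members under alternatives, 28 turned their sign where the reported value or the alternative was called; turns between values not called on either side are not counted in the 28. Quantile normalization and the authors' values, in that order, gave Eif3m -0.12 and -0.14 in AF2 WT, -0.23 and -0.22 in MISS WT, -0.087 and -0.11 in MISS KO, and 0.15 and 0.13 in the difference between AF2 KO and AF2 WT. For Eif4a2 they gave -0.27 and -0.30, -0.25 and -0.30, -0.26 and -0.28, and 0.30 and 0.34. In MISS WT, Eif3e was at -0.22 and -0.26, Eif3k at -0.40 and -0.39, and Eif4ebp3 at -0.076 and -0.067 (MISS KO -0.011 and -0.020). Eif2b2 in MISS KO was at -0.0023 in the authors' values. The second probe of Eif2c2 gave -0.28 in AF2 WT, -0.20 in MISS KO and 0.37 in the difference. The cause was not tested. Pairing by replicate number was not possible because the labels give no replicate numbers that tie an array to one of another group. Arrays were numbered in accession order. The block that could be fitted was the slide. The main fit leaves slide out, and the values with slide as a block are given as such. With 3 or 4 arrays a group, small changes were not detectable for all members, and dim probes such as those of Eif4e1b give no level.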
